A study of Mus musculus with 4 samples.

Results

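The 42 genes described here were type I and type II interferon-induced genes chosen by name, of 24087 genes in the expression table of splenic regulatory T (Treg) cells. All 42 were found in the table, and all 42 had an FPKM (fragments scaled to gene length and library total) of 1 or more in at least 2 of the 4 libraries, the filter that 11399 genes passed. Treg cells are CD4+ T cells that carry the transcription factor Foxp3 and restrain other T cells. RNA-seq was performed on CD3+CD4+YFP+ cells from the spleen at steady state. The KO group was Foxp3Cre-YFPSetd2f/f, in which Cre driven from the Foxp3 locus acts on both floxed alleles of Setd2, the gene of the methyltransferase that places H3K36me3, in Foxp3-expressing cells. The CTRL group was Foxp3Cre-YFPSetd2f/+, so that its Treg cells carried the same Cre and 1 floxed allele and were not wild-type. Both were C57BL/6 littermates with no treatment named. Each genotype had 2 libraries (CTRL 1 and CTRL 2, KO 1 and KO 2), each pooled from 2 mice. The labels gave no age or sex for these libraries. The study's methods describe age-matched mice of both sexes, with an age range in weeks, in general terms and not for these libraries.

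Interferons act on their target cells through receptor chains that engage JAK kinases. Type I interferon activates a complex with STAT2 and IRF9 that binds the interferon-stimulated response element (ISRE), and interferon-gamma acts through gamma-activated sites (GAS). In T cells the induced genes include antiviral effectors, sensors and signalling factors that amplify or damp the response, and GTPases that act on pathogen-containing vacuoles. The 42 genes were described in these 3 groups, with 21 antiviral effectors, 11 sensors and regulators and 10 interferon-inducible GTPases.

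Reads recovered from the FPKM steps numbered at least 30578092 to 33186372 per library, and at least 77 to 22111 reads lay behind each value of a member. Setd2 itself had 23.4 and 25.3 FPKM in CTRL 1 and CTRL 2 and 21.3 and 19.5 FPKM in KO 1 and KO 2. Both KO libraries were below both CTRL libraries, and the difference did not pass the test (log2 difference -0.24, SE 0.076, limma adjusted p = 0.097). A value over the whole gene, with reads from exons that stay after recombination, checks the deletion only weakly. Apart from these libraries, the paper reports loss of Setd2 protein in KO splenic Treg cells by flow cytometry, and reduced H3K36me3 by western blot. The defining Treg and T cell markers were high, with 111.6 to 139.8 FPKM for Foxp3 and 204 to 214 FPKM for Cd3d. Markers of other cells were also detected: summed FPKM over 8 myeloid markers was 129 to 296, over 8 B cell markers 667 to 1296, over 8 plasmacytoid dendritic cell markers 26.4 to 33.6, over 8 NK cell markers 38.0 to 51.7, over 2 CD8 T cell markers 8.49 to 11.4 and over 5 erythroid markers 4.16 to 38.5. The largest values in the plasmacytoid, NK and CD8 lists were those of Pacsin1 (19.4 to 25.8 FPKM), Nkg7 (20.1 to 24.7 FPKM) and Cd8b1 (8.33 to 11.2 FPKM). In the same lists Siglech was at 0.19 to 0.65 FPKM, Ncr1 at 0.19 to 0.71 FPKM and Cd8a at 0.16 to 0.33 FPKM.

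The members were transcribed at very different levels in splenic Treg cells of both genotypes, as the plot of FPKM by gene shows. Ifi27l2a, an interferon-induced gene of the ISG12 family, had the highest level, with 395 and 470.1 FPKM in CTRL and 521 and 667 FPKM in KO, above every other member in every library. Irf1, a transcription factor induced by interferon-gamma, and Igtp, an immunity-related GTPase, followed with means over the 4 libraries of 147 and 146 FPKM. Their ranges overlapped, so that their order could not be told. The lowest levels were those of Ifi44 and Rsad2, the viperin gene, with means of 3.10 and 4.01 FPKM, and their ranges overlapped as well. The median of the CTRL means was 15.1 FPKM for effectors, 32.3 FPKM for sensors and regulators and 51.3 FPKM for GTPases. In the order of all 42 levels, 2 of 41 neighbouring pairs had ranges that did not overlap. These were Ifi27l2a above Irf1, and Igtp above Zbp1.

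**Figure D1:**
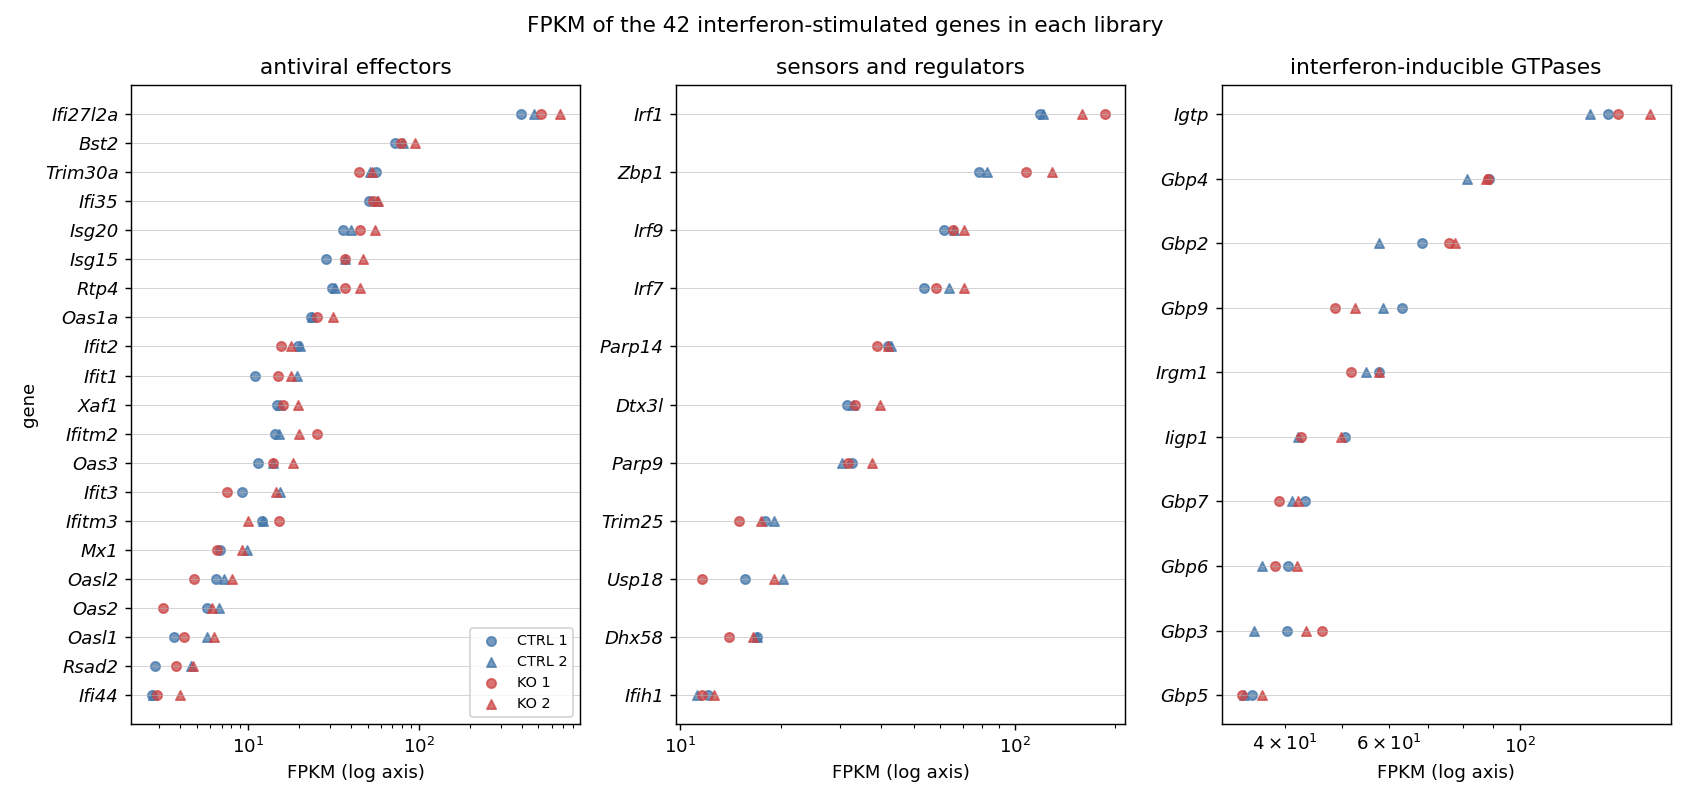
FPKM on a log axis (x) of each of the 42 genes (y) in CTRL 1, CTRL 2, KO 1 and KO 2, in 3 panels by role group, with 1 point per library. Ifi27l2a stood above all other genes at 395 to 667 FPKM. Both KO points lay above both CTRL points for 14 genes, Zbp1 and Irf1 among them, and below them for 4. These counts stood beside 29.0% and 35.5% of all genes tested.

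KO was compared with CTRL to ask how loss of the second Setd2 allele altered expression of these genes in splenic Treg cells. Zbp1, a sensor of Z-form nucleic acids that feeds into cell death, and Irf1 were higher in KO, and these were the only 2 of 42 members past the threshold of adjusted p 0.05 (limma on log2(FPKM + 1), Benjamini-Hochberg over 11399 genes). Zbp1 was 78.6 and 82.8 FPKM in CTRL 1 and CTRL 2 and 108.5 and 129.7 FPKM in KO 1 and KO 2. Both KO libraries were above both CTRL libraries, and the log2 difference was 0.55 (SE 0.097, adjusted p = 0.0405). Irf1 was 119.5 and 121.3 FPKM in CTRL 1 and CTRL 2 and 186.4 and 159.6 FPKM in KO 1 and KO 2. The KO libraries again lay above the CTRL libraries, with KO 1 the higher of them, and the log2 difference was 0.51 (SE 0.086, adjusted p = 0.0386). In group means, Zbp1 was 80.7 ± 2.95 FPKM in CTRL and 119.1 ± 15.0 FPKM in KO, and Irf1 was 120.4 ± 1.32 FPKM in CTRL and 173.0 ± 18.9 FPKM in KO (SD, n = 2 libraries). No member was lower in KO past the threshold, by limma on FPKM or by limma-voom on the recovered reads, and 2 members, Ifit2 and Gbp9, were lower at an unadjusted p under 0.05. Without any 1 of the 4 libraries neither call was kept, with adjusted p from 0.102 to 0.161 for Zbp1 and from 0.0888 to 0.151 for Irf1, while the log2 difference stayed between 0.42 and 0.68 and between 0.40 and 0.63. At most 1 gene in the whole table passed without any 1 library. Both calls were also lost with no filter on low values, where 0 genes in the whole table passed and 4463 had an unadjusted p under 0.05 (adjusted p = 0.0956 for Zbp1 and 0.0925 for Irf1), and with no variance trend (0.0567 and 0.0540). RNA per cell and the number of cells that carry a transcript cannot be told apart in sorted bulk samples.

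The count of members past the threshold was close to the share over all genes. The 2 members higher in KO made up 4.76% of the 42, beside 5.10% of all genes tested, and the 0 members lower in KO stood beside 4.65% of all genes tested. At an unadjusted p under 0.05, 8 members were higher (19.0%, beside 16.3% of all genes tested) and the 2 lower stood beside 18.4% of all genes tested. The median log2 difference was 0.11 over the 42 members and -0.022 over all genes tested, with 28 members above 0 and 14 below 0. The members' median was 0.021 without KO 2 and 0.23 without KO 1. Levels were also taken as deviations from each member's mean over the 4 libraries. The median of these deviations had a pooled SD of 0.12 between libraries of a genotype. Both KO libraries lay above both CTRL libraries for 14 of 42 members (33.3%), beside 29.0% of all genes tested. Both lay below for 4 members (9.52%), beside 35.5% of all genes tested, and the groups overlapped for the other 24 members. The 4 members with both KO libraries below were Ifit2, Trim25, Dhx58 and Gbp9.

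**Figure D2:**
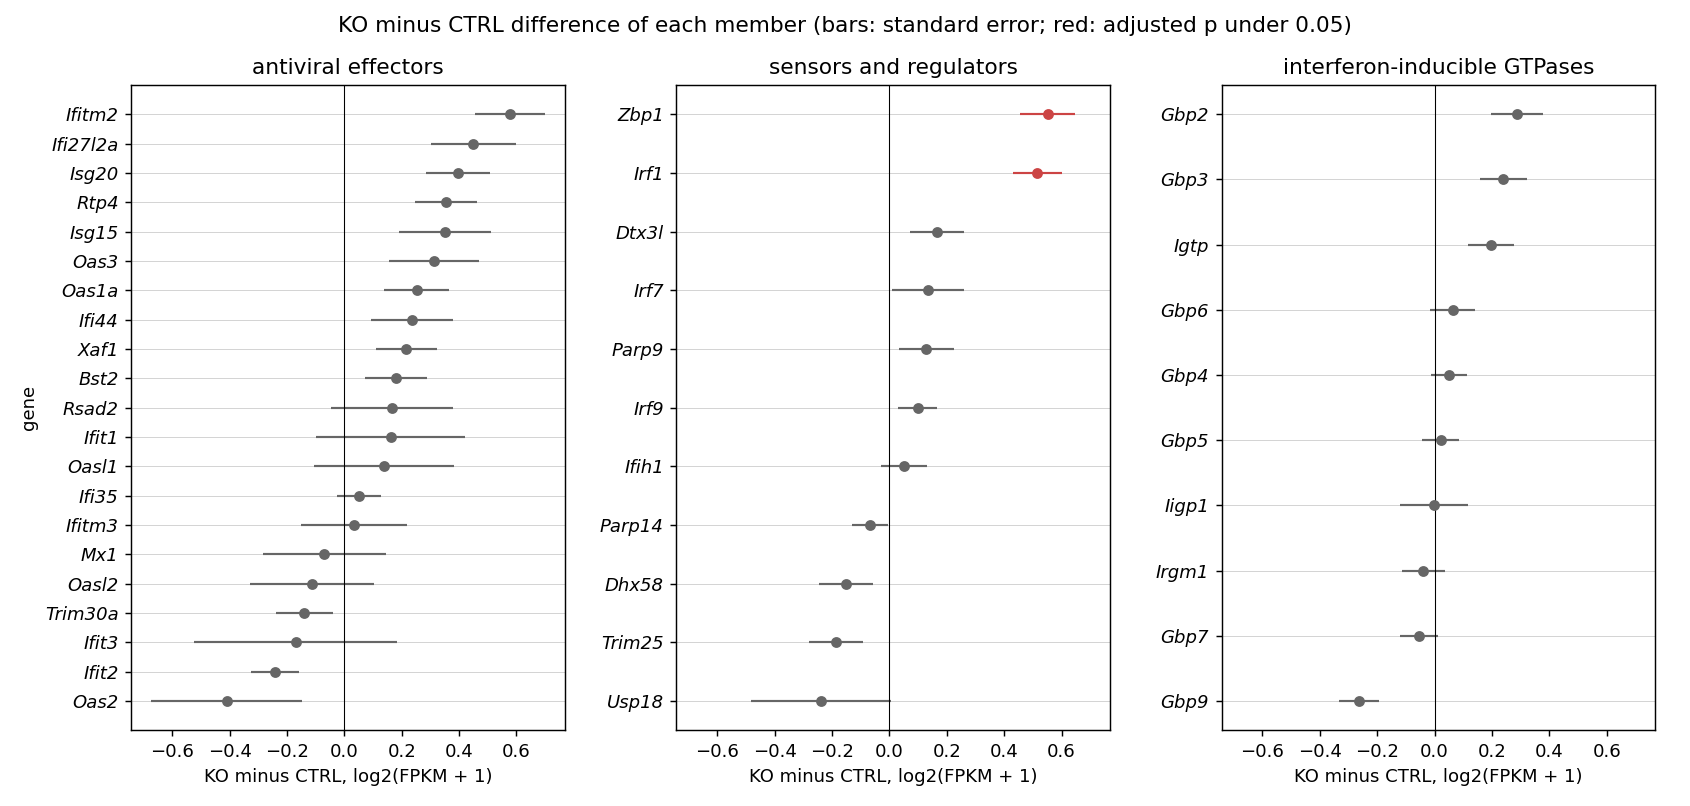
Difference between KO and CTRL on the log2(FPKM + 1) scale (x) for each member (y), in 3 panels by role group, with bars for the standard error of the limma fit. Zbp1 (0.55) and Irf1 (0.51), in red, passed the threshold, and the other 40 genes, in grey, lay between -0.41 for Oas2 and 0.58 for Ifitm2.

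Promoter sequence was examined for the elements through which interferons are known to act. RefSeq promoters on GRCm38.p6 (250 bases before to 50 bases after a start) were found by symbol for 29 of the 42 members. There was no entry matched for Dhx58, Gbp4, Gbp6, Gbp9, Ifi27l2a, Iigp1, Mx1, Oas2, Parp14, Parp9, Rtp4, Usp18 and Zbp1. The core of the ISRE, searched as GAAA, any 2 bases and GAAA again on both strands with overlapping matches counted, was present for 17 of the 29 members (58.6%) and for 3.99% of all 27025 genes of the promoter table. GAS, searched as TTCNNNGAA, which reads the same on both strands, was present for 10 of the 29 (34.5%) and for 9.55% of all genes. Of the GTPases, 6 of 6 held the ISRE core, against 10 of 17 effectors and 1 of 6 sensors and regulators. Both motifs were present for 6 members and neither for 8. A match describes letters in this window and not a bound site. Shown are the 160 bases before the start for Irf1, the only member past the threshold with a promoter entry (chr11:53769854-53770013, plus strand), for the paralogs Ifitm2 (chr7:140955962-140956121, minus strand) and Ifitm3 (chr7:141010745-141010904, minus strand), and, picked after their matches were seen, for Isg15 (chr4:156200819-156200978, minus strand), Ifit1 (chr19:34640729-34640888, plus strand) and Igtp (chr11:58199396-58199555, plus strand). Capitals mark the matches, which are GAS in Irf1, the ISRE core in Ifitm2, Isg15 and Ifit1, and GAS followed by the ISRE core in Igtp.
Irf1: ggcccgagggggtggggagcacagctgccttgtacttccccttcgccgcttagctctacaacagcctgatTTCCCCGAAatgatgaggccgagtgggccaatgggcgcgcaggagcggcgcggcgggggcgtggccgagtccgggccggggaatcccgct
Ifitm2: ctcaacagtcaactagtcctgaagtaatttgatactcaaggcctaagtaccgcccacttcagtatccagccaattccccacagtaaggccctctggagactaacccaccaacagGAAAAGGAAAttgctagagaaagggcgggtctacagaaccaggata
Ifitm3: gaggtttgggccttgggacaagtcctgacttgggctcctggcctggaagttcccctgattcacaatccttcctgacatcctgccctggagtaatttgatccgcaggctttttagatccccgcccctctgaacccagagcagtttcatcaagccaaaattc
Isg15: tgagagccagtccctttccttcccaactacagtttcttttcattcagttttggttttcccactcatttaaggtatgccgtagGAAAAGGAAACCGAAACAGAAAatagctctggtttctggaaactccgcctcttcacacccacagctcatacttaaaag
Ifit1: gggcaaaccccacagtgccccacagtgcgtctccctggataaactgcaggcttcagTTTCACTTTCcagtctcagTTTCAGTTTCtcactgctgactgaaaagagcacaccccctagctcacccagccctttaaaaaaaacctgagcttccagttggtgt
Igtp: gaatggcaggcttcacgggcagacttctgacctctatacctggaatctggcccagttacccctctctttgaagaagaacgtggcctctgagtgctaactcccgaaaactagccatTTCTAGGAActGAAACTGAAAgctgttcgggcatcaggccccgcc
In Irf1 the match began 90 bases before the start. Of its promoter entries, the one that held a motif was shown. Its other entry (chr11:53770223-53770522, plus strand) held neither motif. In Ifitm2 the match began 46 bases before the start, whereas Ifitm3 had no match before its start and had matches to both motifs after it. In Isg15 there were 3 overlapping matches, the first of them 78 bases before the start. In Ifit1 both matches read on the opposite strand, 104 and 85 bases before the start.

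Of the 21 antiviral effectors, 0 passed the threshold in either direction, by limma on FPKM or by limma-voom. At an unadjusted p under 0.05, 4 were higher and 1 was lower, beside 16.3% and 18.4% of all genes tested. In an alternative setting with the replicate number as a block, Ifi27l2a, Isg20, Ifitm2, Isg15 and Rtp4 passed as higher. The labels tie these numbers to no litter or day. The median log2 difference was 0.17, with 15 above 0 and 6 below 0. The highest was that of Ifitm2, a membrane protein that blocks entry of enveloped viruses, with 14.3 and 15.1 FPKM in CTRL and 25.3 and 19.9 FPKM in KO. The KO libraries were above the CTRL libraries, and the difference of 0.58 (SE 0.12, adjusted p = 0.0509) was just outside the threshold. It passed in 5 of 10 alternative settings, in which its adjusted p ranged from 0.0241 to 0.114. Its paralog Ifitm3, whose promoter letters are set beside those of Ifitm2 above, was 12.0 and 12.2 FPKM in CTRL and 15.2 and 10.1 FPKM in KO, a difference of 0.03 (SE 0.19) with overlapping groups. A further paralog outside the 42 genes, Ifitm1, named after its values were seen, was 1.16 and 0.65 FPKM in CTRL and 3.27 and 2.25 FPKM in KO. Its difference was 0.98 (SE 0.21, adjusted p = 0.0504), from at least 19 to 97 reads per library. The difference for Ifi27l2a, with the levels given above, was 0.45 (SE 0.15, adjusted p = 0.103). Isg20, a 3'-to-5' exonuclease of RNA, was 36.1 and 39.8 FPKM in CTRL and 45.4 and 55.5 FPKM in KO, a difference of 0.40 (SE 0.11, adjusted p = 0.0793). In both genes the KO libraries lay above the CTRL libraries without passing the test.

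Among the effectors at the lower end, Oas2, an oligoadenylate synthetase that activates RNase L, was 5.79 and 6.78 FPKM in CTRL and 3.18 and 6.15 FPKM in KO. The difference was -0.41 (SE 0.26, adjusted p = 0.325) and rested on KO 1, since it was -0.023 without that library. Ifit2 and Ifit3 encode tetratricopeptide proteins that act on viral RNA. Ifit2 was 19.7 and 20.1 FPKM in CTRL and 15.6 and 17.9 FPKM in KO, with both KO libraries below (log2 difference -0.24, SE 0.084, adjusted p = 0.118). Ifit3 was 9.26 and 15.3 FPKM in CTRL and 7.50 and 14.6 FPKM in KO, and its groups overlapped (-0.17, SE 0.35, adjusted p = 0.769). The other 15 effectors, Bst2, Ifi35, Ifi44, Ifit1, Ifitm3, Isg15, Mx1, Oas1a, Oas3, Oasl1, Oasl2, Rsad2, Rtp4, Trim30a and Xaf1, had differences from -0.14 to 0.36. Isg15, the ubiquitin-like modifier named here after its values were seen, was 28.6 and 36.7 FPKM in CTRL and 37.0 and 46.8 FPKM in KO (0.35, SE 0.16, adjusted p = 0.192). Its lower KO library was close to its higher CTRL library.

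Of the 11 sensors and regulators, Zbp1 and Irf1 were higher (18.2%, beside 5.10% of all genes tested) and 0 were lower (beside 4.65%). At an unadjusted p under 0.05, 2 of the 11 were higher (18.2%, beside 16.3% of all genes tested) and 0 were lower (beside 18.4%). The median log2 difference was 0.098. The other 9 had differences from -0.24 to 0.17 with adjusted p from 0.225 to 0.693. Dtx3l and Parp9 encode partners in an E3 ubiquitin ligase complex, and their exons overlap on opposite strands. Dtx3l was 31.5 and 33.0 FPKM in CTRL and 33.4 and 39.5 FPKM in KO (0.17, SE 0.094), and Parp9 was 32.6 and 30.5 FPKM in CTRL and 31.8 and 37.6 FPKM in KO (0.13, SE 0.096). For Irf7, the regulator of type I interferon genes, values were 53.8 and 63.6 FPKM in CTRL and 58.4 and 70.8 FPKM in KO (0.13, SE 0.12). KO 2 was the highest library for all 3 of these genes.

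Usp18, the isopeptidase that removes ISG15 and damps receptor signalling, was 15.6 and 20.3 FPKM in CTRL and 11.7 and 19.1 FPKM in KO (-0.24, SE 0.24). Trim25, a ubiquitin ligase of the RIG-I pathway, was 18.0 and 19.1 FPKM in CTRL and 15.0 and 17.5 FPKM in KO (-0.19, SE 0.093). Dhx58, the RIG-I-like receptor LGP2, was 17.01 and 17.03 FPKM in CTRL and 14.0 and 16.5 FPKM in KO (-0.15, SE 0.093). KO 1 was the lowest library for each of these genes, and the groups overlapped for Usp18 only. Ifih1, which encodes the RNA sensor MDA5, Irf9 and Parp14 lay between -0.067 and 0.098.

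Of the 10 interferon-inducible GTPases, 0 passed the threshold in either direction, by limma on FPKM or by limma-voom, with 2 higher and 1 lower at an unadjusted p under 0.05, beside 16.3% and 18.4% of all genes tested. The median difference of 0.036 and the median standard error of 0.077 were the smallest of the 3 role groups. Guanylate-binding proteins gather on vacuoles and bacteria in the cytosol. Gbp2 was 68.3 and 57.7 FPKM in CTRL and 76.0 and 77.7 FPKM in KO (0.29, SE 0.091, adjusted p = 0.0976), and Gbp3 was 40.2 and 35.4 FPKM in CTRL and 46.2 and 43.5 FPKM in KO (0.24, SE 0.081, adjusted p = 0.111). Igtp was 141.0 and 131.7 FPKM in CTRL and 146.8 and 166.2 FPKM in KO (0.20, SE 0.081, adjusted p = 0.160). In all 3 genes the KO libraries lay above the CTRL libraries.

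Gbp9 ran the other way, with 63.3 and 58.7 FPKM in CTRL and 48.6 and 52.6 FPKM in KO (-0.26, SE 0.070, adjusted p = 0.0726). Its exons overlap those of Gbp4 and Gbp8 on the same strand, so its value is uncertain, as is that of Gbp4. Gbp7 was 43.2 and 41.1 FPKM in CTRL and 39.1 and 42.1 FPKM in KO (-0.05, SE 0.065). Irgm1, a regulator of the immunity-related GTPases, was 57.8 and 54.8 FPKM in CTRL and 51.8 and 57.8 FPKM in KO (-0.040, SE 0.074). Both genes had overlapping groups. Gbp4, Gbp5, Gbp6 and Iigp1 lay between -0.0015 and 0.063. Exons of 7 members overlap those of another gene, Igtp with Irgm2 and Irf9 with Rnf31 on the same strand and Irf7 with Phrf1 on the opposite one among them, and near-identical copies in the Gbp, Ifit, Ifitm and Oas families may share reads.

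At many members, single libraries of a genotype differed from each other by more than the genotype means did. The larger of the within-genotype differences was above the size of the KO minus CTRL difference for 30 of 42 members (71.4%), beside 46.5% of all genes tested. These measures are unlike, since the former is the larger of 2 gaps between single libraries and the latter is between means of 2 libraries. The former therefore tends to be larger even without a genotype effect. Of the 21 effectors, 20 were higher in CTRL 2 than in CTRL 1 and 19 were higher in KO 2 than in KO 1, beside 46.6% and 53.6% of all genes tested. The median differences were 0.15 in CTRL and 0.30 in KO. Of the sensors and regulators, 9 of 11 were higher in CTRL 2 and 10 of 11 in KO 2. The GTPases differed from this, with 0 of 10 higher in CTRL 2 (median -0.11) and 8 of 10 higher in KO 2 (median 0.11).

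The 3 widest of these gaps, picked for their size, were in Ifit3, Oas2 and Ifit1. Ifit3, with the values given above, differed by 0.67 between the CTRL libraries and by 0.88 between the KO libraries. Oas2, also given above, differed by 0.20 and 0.77. Ifit1, a sensor of RNA lacking cap methylation, was 10.9 FPKM in CTRL 1 and 19.3 in CTRL 2 (log2 difference 0.76) and 14.9 FPKM in KO 1 and 17.9 in KO 2 (0.25). In all 3 genes the groups of both genotypes overlapped. Ifitm2, Ifitm3 and Irf1 were the members with a KO 1 value more than 0.2 above KO 2 on the log2 scale, by 0.33, 0.55 and 0.22.

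Markers of other cells differed between the same libraries. All 8 myeloid markers, among them Lyz2, Csf1r and Cd68, were lower in CTRL 2 than in CTRL 1 and lower in KO 2 than in KO 1, with summed FPKM of 252, 161, 296 and 129 in CTRL 1, CTRL 2, KO 1 and KO 2. The summed FPKM of the 5 erythroid markers was 22.7, 4.16, 38.5 and 11.4 in the same order, with Hbb-bs listed at 0 in every library but KO 1. Summed B cell markers were 929.9, 667, 1296 and 1199 FPKM, of which Ighm made up most, and were higher in both KO libraries than in both CTRL libraries. No plasmacytoid dendritic cell marker was at 0, but Siglech and Cd300c reached at most 0.65 and 0.27 FPKM. The part of these markers in the differences of the members, and of the pathway genes below, was not tested.

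**Figure D3:**
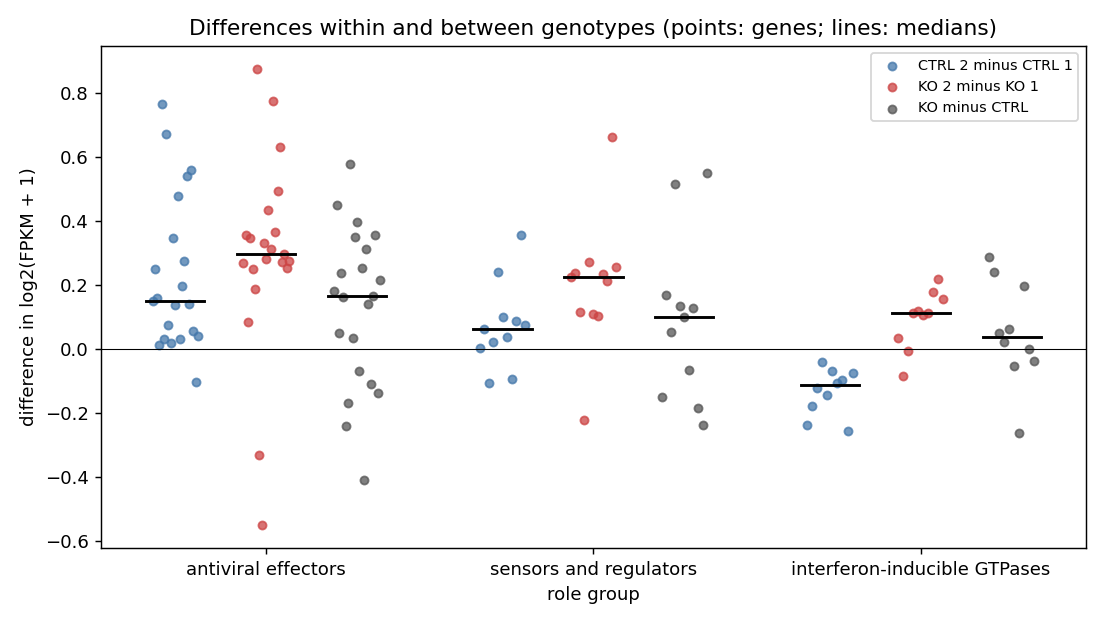
Differences in log2(FPKM + 1) (y) for each member, by role group (x): CTRL 2 minus CTRL 1 in blue, KO 2 minus KO 1 in red and KO minus CTRL in grey, with a black line at the median of each set. Effectors lay above 0 in 20 of 21 cases within CTRL and 19 of 21 within KO, whereas all 10 GTPases lay below 0 within CTRL.

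Other genes of the pathway were taken from 6 lists that did not hold the members, with 116 of 144 genes in the table tested. Ligand genes other than Ifng were at or near 0. Of 21 interferon genes, 13 were listed at 0 in all 4 libraries, and Ifna1, Ifna2, Ifna5, Ifna11, Ifnab, Ifnk and Ifnz reached at most 0.297 FPKM, from at least 1 to 6 reads in their highest library. Ifng, the only interferon gene tested, was 18.1 and 19.5 FPKM in CTRL and 17.7 and 12.4 FPKM in KO (log2 difference -0.32, SE 0.17, adjusted p = 0.235). Both KO libraries were below both CTRL libraries, KO 1 by little.

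Of the 10 receptor and JAK-STAT genes tested, 0 passed the threshold in either direction, by limma on FPKM or by limma-voom. At an unadjusted p under 0.05, 1 was higher and 0 were lower, beside 16.3% and 18.4% of all genes tested. The receptor chain Ifnar1 was 39.1 and 40.3 FPKM in CTRL and 40.3 and 40.4 FPKM in KO, a difference of 0.02 (SE 0.054). Its partner Ifnar2 was 35.7 and 34.8 FPKM in CTRL and 38.3 and 39.9 FPKM in KO, a difference of 0.15 (SE 0.057, adjusted p = 0.146). The differences were 0.09 (SE 0.053) for Ifngr1, at 97.7 to 107.2 FPKM, and -0.04 (SE 0.10) for Ifngr2, at 22.2 to 26.7 FPKM. The directions of Ifnar1 and Ifngr1 reversed under quantile normalization. Stat2, a signal transducer of type I interferon receptors, was 28.4 and 28.2 FPKM in CTRL and 24.7 and 27.4 FPKM in KO (-0.12, SE 0.071, adjusted p = 0.304).

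Genes of MHC class I processing, which generate and load peptides for CD8 T cells, were higher in KO for 3 of 13 genes (23.1%, beside 5.10% of all genes tested). They were lower for 0 (beside 4.65%), also at an unadjusted p under 0.05 (beside 18.4%) and by limma-voom. At an unadjusted p under 0.05, 9 were higher (69.2%, beside 16.3% of all genes tested), and by limma-voom 5 were higher. The median difference was 0.25. Psmb9, a catalytic subunit of the immunoproteasome, rose from 170.7 and 167.6 FPKM in CTRL to 214.7 and 227.9 FPKM in KO (0.38, SE 0.057, adjusted p = 0.0352). Psmb10, another catalytic subunit, rose from 87.4 and 88.1 FPKM to 119.4 and 117.9 FPKM (0.43, SE 0.050, adjusted p = 0.0346). Psme2, a subunit of the PA28 proteasome activator, rose from 157.5 and 150.2 FPKM to 186.7 and 198.4 FPKM (0.32, SE 0.060, adjusted p = 0.0424). Both KO libraries lay above both CTRL libraries for 11 of the 13 genes, beside 29.0% of all genes tested, and below them for Erap1 and Nlrc5. All 3 calls were lost without any 1 library, with log2 differences then from 0.28 to 0.44. Under quantile normalization the difference for Psme2 was 0.19 and did not pass, and with no variance trend neither Psmb9 nor Psme2 passed (adjusted p = 0.0529 and 0.0661). Exons of Psmb9 overlap those of Tap1 on the opposite strand, as those of Cxcl10 do with Art3.

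**Figure D4:**
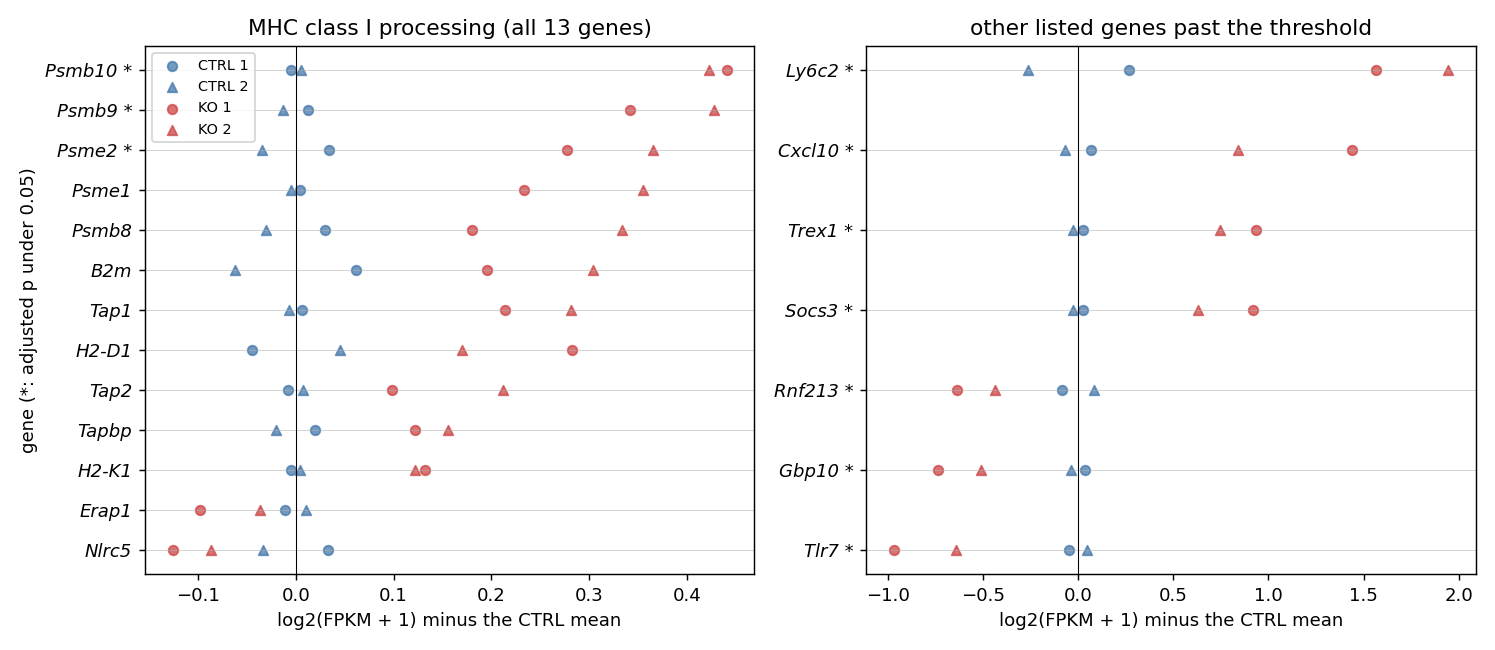
log2(FPKM + 1) minus the CTRL mean (x) in each library for the 13 MHC class I processing genes (left) and for the genes of the other lists past the threshold (right), with genes on the y axis, 1 point per library and an asterisk for adjusted p under 0.05. The KO libraries lay to the right of the CTRL libraries for 11 of 13 genes on the left, and Ly6c2 had the highest difference (1.75) on the right.

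Of the 9 inhibitors tested, 1 was higher (11.1%, beside 5.10% of all genes tested). This was Socs3, a suppressor of cytokine receptor signalling, which rose from 57.9 and 55.7 FPKM in CTRL to 108.4 and 88.4 FPKM in KO (0.78, SE 0.11, adjusted p = 0.0351). No inhibitor was lower (beside 4.65%), also at an unadjusted p under 0.05 (beside 18.4%) and by limma-voom. At an unadjusted p under 0.05, 2 inhibitors were higher (22.2%, beside 16.3% of all genes tested), and by limma-voom 2 were higher. Of the 16 genes of nucleic acid sensing tested, Trex1, the exonuclease that clears cytosolic DNA, rose from 27.9 and 26.9 FPKM to 53.3 and 46.7 FPKM (0.84, SE 0.081, adjusted p = 0.0306). Its exons overlap those of Atrip on the same strand, so its value is uncertain. Tlr7, the endosomal receptor for single-stranded RNA, fell from 9.85 and 10.6 FPKM to 4.73 and 6.18 FPKM (-0.81, SE 0.13, adjusted p = 0.0378). The list thus had 1 gene higher and 1 lower (6.25% each, beside 5.10% and 4.65% of all genes tested), and its median difference was -0.11.

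Of 67 other interferon-induced genes tested, 2 were higher and 2 were lower in KO (2.99% in each direction). These shares stood beside 5.10% higher and 4.65% lower of all genes tested, and the median difference of the list was -0.025. Ly6c2, a surface antigen of the Ly6 family, rose from 9.67 and 6.38 FPKM in CTRL to 25.2 and 33.1 FPKM in KO (1.75, SE 0.21, adjusted p = 0.0346). The chemokine gene Cxcl10 rose from 39.4 and 35.8 FPKM to 103.6 and 68.1 FPKM (1.14, SE 0.20, adjusted p = 0.0405), a call lost with no variance trend (0.0540) and with robust variance (0.0562). Gbp10, a further guanylate-binding protein gene, fell from 14.7 and 13.9 FPKM to 8.16 and 9.70 FPKM (-0.62, SE 0.099, adjusted p = 0.0378). Rnf213, a large ubiquitin ligase, fell from 30.1 and 33.8 FPKM to 20.2 and 23.3 FPKM (-0.54, SE 0.099, adjusted p = 0.0422), a call lost with no variance trend (0.0578). For each of these 4 genes the KO libraries did not overlap the CTRL libraries. As for the members, the 7 calls outside MHC class I processing were lost without any 1 library, with adjusted p from 0.0888 to 0.158, and the direction of each was kept.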

How the data were processed

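RNA-seq of sorted splenic Treg cells was analysed. Per the labels and the study's methods, oligo(dT)-purified RNA was sequenced as paired reads, and the submitters' processing notes name FastQC, HISAT2 (2.2.1), featureCounts (2.0.1), edgeR (3.34.0) and mm10. The deposited values were FPKM, made by the authors. Strand use, multi-mapping and gene lengths were not given in the sources used here. Columns named WT were read as CTRL by number.

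KO was compared with CTRL by limma (3.58.1, R 4.3.3) on log2(FPKM + 1), with a variance trend, over genes at 1 FPKM or more in 2 or more libraries. The tests, all two-sided, used Benjamini-Hochberg adjustment over 11399 genes and a threshold of 0.05. The log2 scale with this pseudocount understates changes of low genes. Values were checked for whole reads, and all 19888 genes above 0 came out whole. These reads are lower bounds. p-values measure the spread between pools of mice. Positions and exon overlaps came from GENCODE vM21 (GRCm38), and promoters from RefSeq.

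Members past the threshold were named, as were the 3 highest and 3 lowest other members of each role group and, from the pathway lists, genes past the threshold, receptor chains, Stat2 and detected interferons. A listed gene and a marker are not reported here by name and remain in the counts and sums. The members, lists and tests were chosen with earlier results of these data known. Alternatives were other pseudocounts, filters, variance models, scalings, a replicate block, limma-voom on recovered reads and leaving out each library. Computations outside R used Python 3.11.15.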

Additional observations from a re-analysis of the deposited data

How the results depend on the processing

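The count of members higher in KO was 2 as reported, 0 with no filter on low values or no variance trend, 7 with the replicate block (Ifi27l2a, Isg20, Ifitm2, Isg15 and Rtp4 beside Zbp1 and Irf1) and 0 without each library in turn. It was 2 or 3 in the other 7 alternatives, and the count of members lower was 0 throughout. The members' median log2 difference ranged from 0.076 to 0.13 over the settings that keep all libraries and from 0.021 to 0.23 over those that leave one out. Over all genes the counts were 581 higher and 530 lower as reported, 0 and 0 with no filter, 315 higher with no variance trend, 968 and 805 with the replicate block, 878 and 1008 by limma-voom, and 0 to 1 in each direction without each library. The pathway lists had 0 genes called with no filter and 0 without each library. The inhibitors had 2 higher with mean FPKM above 5, the replicate block, robust variance or limma-voom. Nucleic acid sensing had 2 lower under quantile normalization. The other interferon-induced genes had 4 higher under median-ratio or same-sum scaling, 6 higher and 4 lower with the block, 5 higher by limma-voom and 1 lower with no variance trend. MHC class I processing had 5 higher with mean FPKM above 5 or limma-voom and 1 with no variance trend. Under quantile normalization the differences were -0.024 for Ifnar1 and -0.014 for Ifngr1, -0.031 for Gbp4 and -0.015 for Gbp5, and under median-ratio scaling 0.017 for Iigp1, all reversals. Directions also reversed without 1 library for Ifngr2 (range -0.17 to 0.088) and 16 members: Ifit1 (-0.22 to 0.54), Ifit3 (-0.61 to 0.27), Rsad2 (-0.11 to 0.45), Mx1 (-0.31 to 0.17), Oasl1 (-0.13 to 0.41), Oasl2 (-0.43 to 0.20), Ifitm3 (-0.24 to 0.31), Ifi35 (-0.029 to 0.13), Ifih1 (-0.0060 to 0.11), Irf7 (-0.0017 to 0.27), Usp18 (-0.57 to 0.094), Gbp4 (-0.011 to 0.11), Gbp5 (-0.035 to 0.077), Gbp6 (-0.0090 to 0.13), Irgm1 (-0.12 to 0.038) and Iigp1 (-0.13 to 0.13). Leaving out a library leaves 1 sample in a group, assumed to vary like the other group, so lost calls there can follow from fewer samples. Whether they also rested on the library left out was not tested. For the other changes the cause was not tested. The replicate numbers pair no litter or day in the labels. The differences between libraries 2 and 1 correlated across all genes tested at Pearson 0.342 and Spearman 0.0553, and across the 42 members at 0.516 and 0.635, as descriptions, since genes are not independent. With 2 libraries per group, differences near the median standard error of 0.10 in the members could not be resolved. Differences of several standard errors also failed the test, such as 0.58 (SE 0.12) for Ifitm2 and -0.26 (SE 0.070) for Gbp9. The lack of calls among effectors and GTPases therefore does not exclude changes of this size.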
